A study of Trachinotus blochii with 12 samples.

Results

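Tolerant and intolerant brains of the golden pompano (Trachinotus blochii), a warm-water fish raised in aquaculture, are compared here. The comparison rests on 6 of the 12 RNA-seq libraries of the series. They are the 3 labelled Tol brain and the 3 labelled Intol brain. All fish were 2 months old, were fasted, and were exposed to severe hypoxia in 3 tanks of 80 fish. Dissolved oxygen was lowered over 2 h and held at 0.9 mg/L, allowed to vary by 0.1 mg/L. From each tank 14 fish were taken per status, 42 in all for each status. The Intol group was made of fish that floated head up, lost balance and were dying within 1 h, and the Tol group of fish that still looked normal after 24 h. Both groups were hypoxic and no library came from fish in normal water, so each difference is Tol relative to Intol and has no baseline. The groups also differ by 23 h of low oxygen and fasting, and status and time cannot be told apart. The labels do not state the brain region, the number of fish in a library or its tank. The p-values of the main brain fit rest on the spread among these 6 samples, shared in part across gene models. That spread may be technical in part.

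The vertebrate brain depends on a steady supply of oxygen, since much of its ATP is spent on the ion pumps that keep neurons excitable. When oxygen falls, hypoxia-inducible transcription factors escape degradation and raise genes of glycolysis, glucose uptake, blood vessel growth and erythropoiesis, while tolerant fishes are known to lower energy demand. Which of these genes moved here was not analysed: the files identify features only as numbered gene models with no gene names, and no annotation or sequence was used here. The markers of neurons, glia, vessels and blood could therefore not be looked up either, and the brain label was checked only against the liver libraries, with which the brain libraries correlated at 0.453 to 0.473 across all gene models on the log2 scale. Gene models are cited by identifier, for at most 2 higher and 2 lower in Tol brain, and others are described by their values alone.

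The values, read as FPKM (fragments per unit of transcript length and of library size), were compared as log2(value + 1). This scale understates the change of low genes. Of 18490 gene models, 14146 reached a value of 1 in 3 or more of the 6 brain libraries and were tested. The other 4344 were not tested, 279 of them listed at 0 in all 6 libraries. Among those tested, 13364 were at 1 or more in every brain library. The summed values were 360680 to 373167 per library. They do not count reads, so sequencing depth is unknown. Since whole tissue was sequenced, fewer cells of a type and less RNA per cell cannot be told apart in any difference below.

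One library stood apart from the other 5. In Intol replicate 3, 150 gene models lay at least 1 on the log2 scale above the mean of the other 5 libraries, against 4 to 18 in each of the others. Only 20 lay at least 1 below that mean, within the 9 to 42 of the other libraries. The departure was therefore mainly an excess, and 22 of the 150 exceeded the others by 2 or more. The gene model with the largest excess was listed at 49.34 in Intol replicate 3 and at 0.57 to 1.33 in the other 5 libraries. The one with the third largest was at 188.33 against 7.27 to 9.49. Of the 150, 10 were at least 3 higher on the log2 scale in liver than in brain, against 190 of the 14146 tested (1.34%), so liver-enriched gene models made up a larger share of the 150 than of all models. Another 51 of the 150 were below 1 in every liver library, against 34.6% of all tested. Models at least 3 higher on the log2 scale in brain than in liver were 6 of the 150, against 17.9% of all tested. No model of that brain-enriched class had a mean value below 7.11 over the 6 libraries. The class rule sets such a floor, because the log2 value in liver cannot be negative, so it keeps low models out. For the 150 the median of the mean value in the other 5 libraries was 2.59. The part of level in these shares was not tested. For the 5 largest excesses, in order of size, the highest liver values were 2.93, 3.29, 4.76, 1.07 and 31.75. The same models read 49.34, 58.14, 188.33, 51.92 and 21.56 in Intol replicate 3. The source of these transcripts was not tested.

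**Figure D1:**
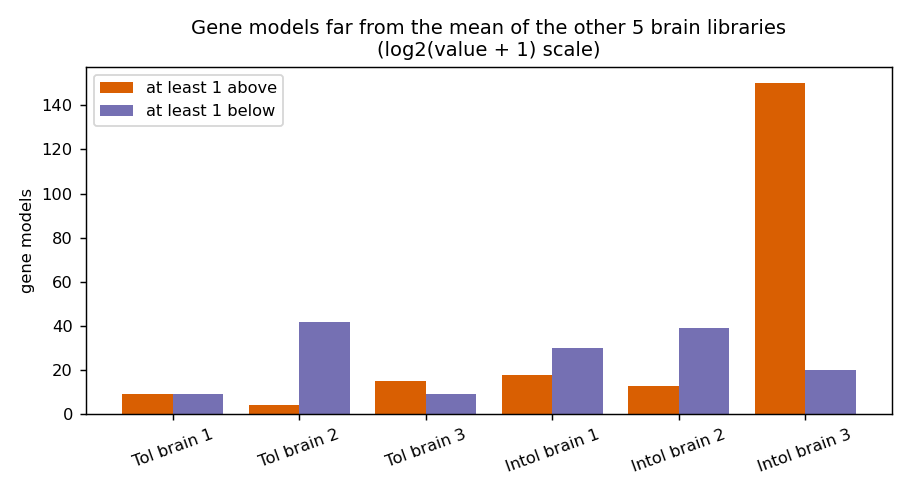
Number of tested gene models (y axis) whose log2(value + 1) lay at least 1 above (orange) or at least 1 below (violet) the mean of the other 5 brain libraries, for each library (x axis). Intol replicate 3 had 150 above, and no other library more than 18.

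Pairwise correlations also set Intol replicate 3 apart. Across the tested gene models the Tol libraries correlated with each other at 0.990 to 0.992 and Intol replicates 1 and 2 at 0.989. Intol replicate 3 correlated with replicate 1 at 0.983 and with replicate 2 at 0.976, while its correlation with the Tol libraries was 0.975 to 0.982. It was thus about as far from the libraries of its own group as from those of the other. The median absolute log2 difference was 0.100 to 0.114 within Tol, 0.120 between Intol replicates 1 and 2, and 0.128 to 0.171 for pairs of a Tol and an Intol library. Intol replicate 3 differed from Intol replicates 1 and 2 by 0.131 and 0.168, inside that last range. The spread within groups was also unequal. The median SD of a gene model was 0.0928 in Tol and 0.120 in Intol, and 0.0851 between Intol replicates 1 and 2. An SD of 0.5 or more was found for 107 gene models in Tol and 405 in Intol.

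In the 6 libraries, 3 of the 14146 gene models passed the test (limma, Benjamini-Hochberg adjusted p under 0.05), or 0.0212%. Trachinotus_GLEAN_10018571 was higher in Tol brain, and Trachinotus_GLEAN_10015801 and Trachinotus_GLEAN_10009201 were lower. Their sizes were moderate, between 1.56-fold and 2.04-fold between the group means. Before adjustment, 1542 gene models were higher and 863 lower in Tol at a limma p under 0.05, together 17.0% of those tested. Which direction held more of them depended on the scaling, as given below. At an adjusted p under 0.1 there were 35 higher and 33 lower, or 0.481%, and the size of these 68 differences ranged from 0.33 to 1.77 on the log2 scale with a median of 0.66. In all 68 the groups did not overlap, against 22.7% of all tested. The 68 were chosen by p in these same libraries, so this is not separate support. Of the 68, 20 were below 1 in every liver library, against 4900 of the 14146 tested (34.6%).

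Trachinotus_GLEAN_10018571 was the call higher in Tol. The Tol brains read 19.86, 19.60 and 18.90, against 9.39, 9.50 and 9.73 for the Intol brains. The 3 Tol libraries were all near 20 and the 3 Intol libraries all near 10, with no overlap and little spread within either group. The means were 19.5 ± 0.5 and 9.54 ± 0.17 (SD, n = 3), a 2.04-fold difference. On the log2(value + 1) scale the difference was 0.96 with an SE of 0.06 (limma, adjusted p = 0.0055). The model was almost absent from liver, at 0.35 or below in all 6 libraries, so it was close to 0 in that organ. Leaving out Intol replicate 3 gave a difference of 0.97 (limma, adjusted p = 0.0112). Over the 18 alternatives its adjusted p ranged from 0.000968 to 0.106, and it missed the threshold without Tol replicate 1, Tol replicate 2 or Intol replicate 1, where the difference was 0.94 to 0.95.

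Trachinotus_GLEAN_10001653 had the next smallest unadjusted p (limma) among gene models higher in Tol, and did not pass the test. The Tol brains read 193.92, 174.31 and 198.59 and the Intol brains 94.45, 115.28 and 109.00. The lowest Tol value was well above the highest Intol value. The means were 189 ± 12.9 and 106 ± 10.7 (SD, n = 3), or 1.78-fold. The log2 difference was 0.83 with an SE of 0.09, just short of the threshold (limma, adjusted p = 0.0503). It ranked 324th of 14146 by mean value in brain and was at 0.08 or below in every liver library. It passed the threshold in 7 of the 18 alternatives, including both other scalings, at adjusted p between 0.00569 and 0.262 over all of them (limma).

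Trachinotus_GLEAN_10015801 was lower in Tol. The Tol brains read 124.09, 128.59 and 131.49, and the Intol brains 206.10, 192.09 and 212.80. Every Intol value was well above the highest Tol value. The means were 128 ± 3.7 and 204 ± 10.6 (SD, n = 3), 1.59-fold higher in Intol. The log2 difference was -0.66 with an SE of 0.06 (limma, adjusted p = 0.0194). Without Intol replicate 3 it was -0.63 (limma, adjusted p = 0.0428), and over the 18 alternatives the adjusted p was 0.00423 to 0.222. In liver it was also present, at 35.8 ± 3.3 in Tol and 53.3 ± 10.5 in Intol (SD, n = 3).

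Trachinotus_GLEAN_10009201 was lower in Tol by a similar amount. It read 81.14, 76.30 and 83.11 in the Tol brains, below the 125.80, 125.47 and 124.78 of the Intol brains. The Intol values, replicate 3 included, lay within about 1 unit of each other. The means were 80.2 ± 3.5 and 125 ± 0.52 (SD, n = 3), 1.56-fold higher in Intol. On the log2 scale this was -0.64 with an SE of 0.06 (limma, adjusted p = 0.0194). Leaving out Intol replicate 3 gave -0.64 again (limma, adjusted p = 0.0428), and over the 18 alternatives the adjusted p was 0.00457 to 0.222. Both lower models missed the threshold without Tol replicate 1, Tol replicate 2 or Intol replicate 1, where their differences lay between -0.67 and -0.60. They also missed it without trend and robust moderation (limma, adjusted p = 0.095 for both) and without Intol replicate 3 when the filter was taken over 5 libraries (limma, adjusted p = 0.0512 for both). Trachinotus_GLEAN_10009201 missed it in the fit over all 12 libraries too (limma, adjusted p = 0.166).

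**Figure D2:**
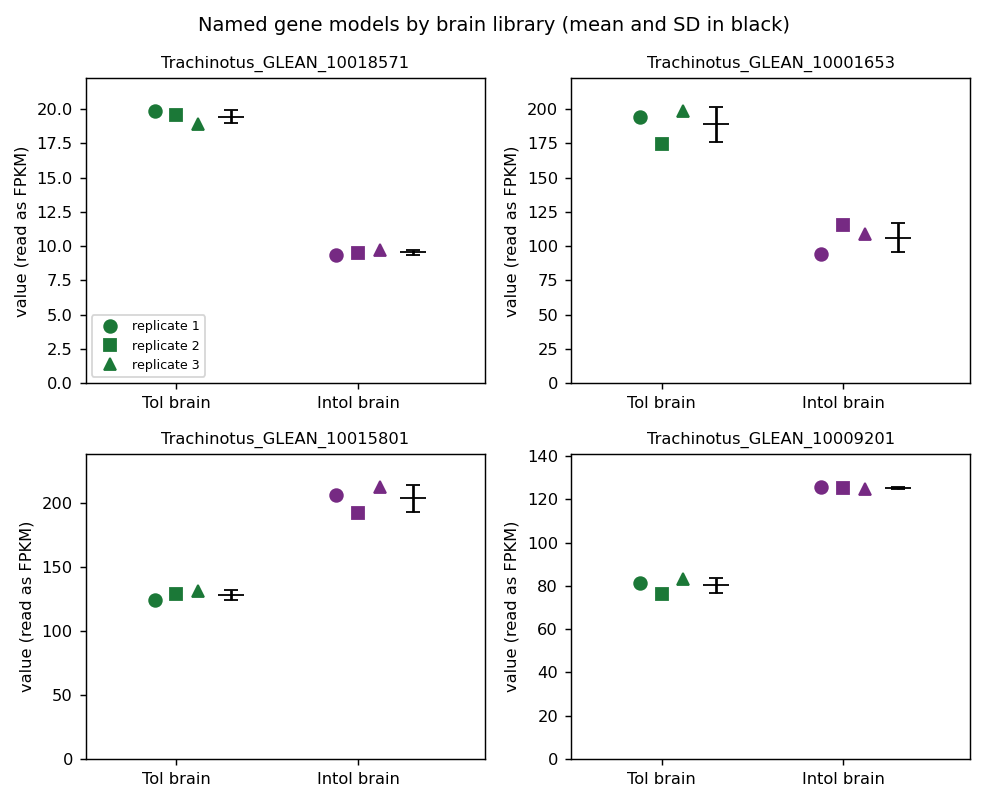
Values read as FPKM (y axis, from 0) of the 4 named gene models in the 3 Tol (green) and 3 Intol (violet) brain libraries, with symbols for replicates and the mean with SD in black. No Tol value overlaps an Intol value in any panel, and Intol replicate 3 lies with Intol replicates 1 and 2. The models were picked for their difference in these same libraries, so this separation is not separate support.

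The calls were also made without Intol replicate 3. In the remaining 5 libraries, 7 gene models passed, 4 higher and 3 lower in Tol, or 0.0495% (limma, adjusted p under 0.05). All 3 calls of the 6 libraries were among them. Before adjustment, 2017 were higher and 873 lower at a limma p under 0.05, 20.4% of those tested, and 1822 gene models had such a p with the same sign in both fits. The balance of these directions also depended on the scaling, as given below. The 4 further calls were not all of one kind. In a pair of them Intol replicate 3 overlapped or nearly met the Tol values. One of these was listed at 3.70, 3.13 and 2.23 in Tol, at 0.25 and 0 in Intol replicates 1 and 2, and at 4.57 in Intol replicate 3. Among the 5 libraries only its 3 Tol values reach 1, so it had to differ there, and its p is not given as support. The other was at 72.38, 75.82 and 74.53 in Tol, at 50.28 and 48.87 in Intol replicates 1 and 2, and at 71.69 in Intol replicate 3. Their difference then rests on 2 Intol libraries. When the filter on low values was taken over the 5 libraries in place of the 6, a choice made after the data were seen, 1 call was left.

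The other further calls kept their direction with Intol replicate 3 included. One was at 16.37, 15.72 and 15.70 in Tol and at 8.99, 9.09 and 10.71 in Intol brain, and its adjusted p was 0.062 with all 6 libraries and 0.0411 without Intol replicate 3 (limma). The last was listed at 0 in all 3 Tol brains and at 3.53, 5.62 and 1.14 in Intol brains. It was the only gene model at 0 throughout one group and at 1 or more throughout the other, and it was also listed at 0 in every liver library. It passed the filter on low values only through the 3 Intol libraries, so it had to differ, and its p is not given as support. Without Intol replicate 3 only 2 libraries reach 1, so the filter taken over 5 libraries leaves it out. An exact 0 in such files may be an estimate that failed, so no fold is given.

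**Figure D3:**
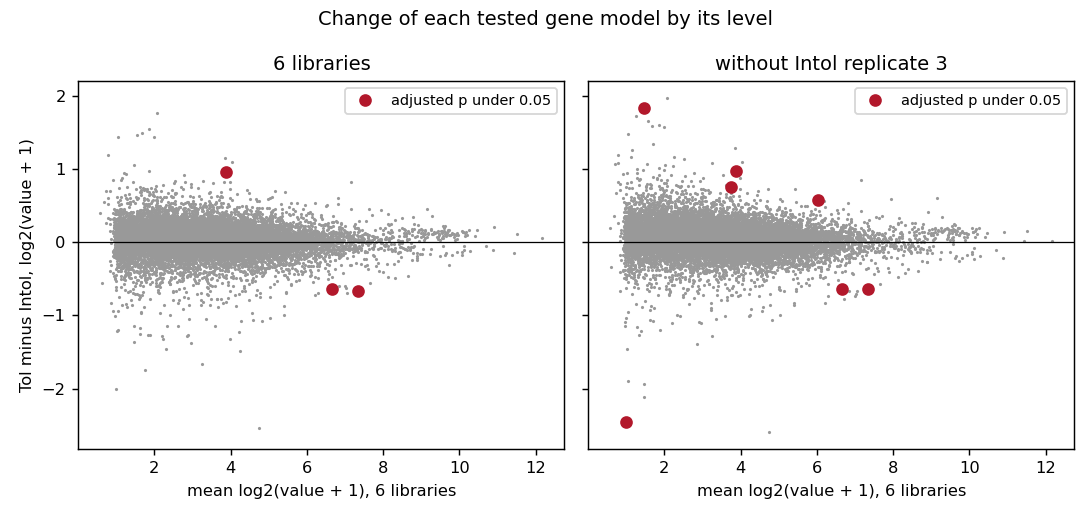
Change of each of 14146 tested gene models (y axis, Tol less Intol, log2(value + 1)) against its mean log2(value + 1) over the 6 libraries (x axis), fitted to all 6 libraries (left) and without Intol replicate 3 (right). Red points passed an adjusted p under 0.05, 3 on the left and 7 on the right. Few points lie beyond a change of 1, and none of the red points on the left does.

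Large differences were rare. With all 6 libraries, 41 gene models, or 0.290%, differed by a fitted log2 value of 1 or more, 10 higher and 31 lower in Tol. Without Intol replicate 3 the numbers were 24 and 25. The 10 higher ones were all among the 24, but 18 of the 31 lower ones were among the 25. Of those 31, 19 belonged to the 150 gene models with an excess in Intol replicate 3. Over these 150 the median fitted difference was -0.40 with all 6 libraries and 0.09 without Intol replicate 3. In 20 of the 150, or 13.3%, all 3 Intol values exceeded the Tol values, against 7.78% of all tested. Without Intol replicate 3, the Tol values lay wholly above in 32 of the 150 and wholly below in 20. Over all tested models the shares without that library were 27.8% above and 12.2% below. The set was picked for its values in that library, and its differences are given as a description.

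The most negative fitted difference, -2.54 ± 0.78 (SE), belonged to a gene model that read 2.21, 10.69 and 35.44 in Tol against 63.00, 69.04 and 59.26 in Intol brain. The Tol values differed from each other by more than the lowest Intol value exceeded the highest Tol value, and the adjusted p was 0.203 (limma). The most positive one, 1.77 ± 0.26 (SE), belonged to a model that read 6.57, 4.60 and 9.83 in Tol against 1.02, 0.91 and 2.03 in Intol brain, with an adjusted p of 0.0842 (limma). Neither passed the test, although the groups did not overlap in either. The third most negative, -1.75, was that of the model with the largest excess in Intol replicate 3, and it was -0.24 without that library.

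**Figure D4:**
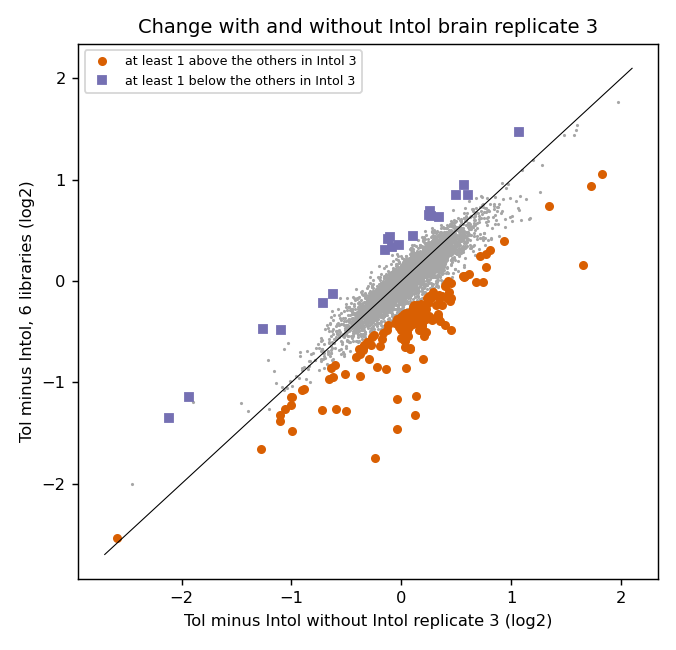
Change of each tested gene model with all 6 libraries (y axis) against the change without Intol replicate 3 (x axis), both as Tol less Intol in log2(value + 1), with the line of equal values. Of the 150 gene models at least 1 above the mean of the other libraries in Intol replicate 3 (orange), 149 lie below the line, and all 20 at least 1 below that mean (violet) lie above it, which follows from how they were chosen.

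Many gene models lay slightly apart between the groups. Full separation of 3 Tol from 3 Intol values corresponds to an exact permutation p of 0.1 (two-sided). The counts below therefore do not show that each such model differs. The 3 Tol values lay wholly above the 3 Intol values for 2117 gene models, or 15% of those tested, and wholly below for 1101, or 7.78%. Without Intol replicate 3 these numbers were 3926, or 27.8%, and 1722, or 12.2%, and fewer libraries make such separation easier to reach. With Intol replicate 2 left out in its place they were 3389 and 2091, so the rise was not particular to replicate 3. The median size of a difference was 0.11 on the log2 scale, close to the median SE of 0.099. More models were higher than lower, and whole libraries were shifted too. The median value of the tested gene models was 8.94, 8.78 and 8.89 in Tol against 8.38, 8.50 and 8.83 in Intol, so that Intol replicates 1 and 2 were low and replicate 3 lay with Tol (exact permutation p = 0.2, two-sided, n = 3 each, where 0.1 is the smallest possible). The median difference of all tested models was 0.04, and 60.1% of the differences were above 0. The part of the library shift in these counts was examined by rescaling.

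The direction of these small shifts depended on the scaling. After median-ratio scaling the median difference was 0.003, and 1470 models lay wholly above and 1576 wholly below, so that 48.3% of the separated models were higher in Tol in place of 65.8%. After quantile normalization the numbers were 1610 and 1407. Under both of these scalings 4 gene models passed as higher and 4 as lower. The named models moved little, with median-ratio differences of 0.92 for Trachinotus_GLEAN_10018571, 0.78 for Trachinotus_GLEAN_10001653, -0.71 for Trachinotus_GLEAN_10015801 and -0.68 for Trachinotus_GLEAN_10009201. The counts at a limma p under 0.05 before adjustment depended on the scaling too. They were 1542 higher and 863 lower in Tol as deposited, 1027 and 1219 after median-ratio scaling, and 1147 and 1077 after quantile normalization. Without Intol replicate 3 they were 2017 and 873 as deposited, and 1184 and 1436 after median-ratio scaling. The other counts of direction were as follows. Fitted differences above 0 outnumbered those below 0 under all 3, with 8497 and 5649 as deposited, 7176 and 6970 after median-ratio scaling and 7426 and 6720 after quantile normalization. Of the differences of at least 0.5 in size, 190 were higher and 200 lower in Tol as deposited, 148 and 256 after median-ratio scaling, and 146 and 259 after quantile normalization.

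The share of gene models wholly below Intol was larger at higher levels, which is given as a description. The tested models were divided by mean value at 3.88, 8.73 and 19.9 into 4 classes of 3535 to 3537. From the lowest to the highest class, the share wholly below Intol was 5.06%, 6.36%, 7.55% and 12.2%, and the share wholly above was 13.6%, 15.5%, 15.7% and 15.1%. After median-ratio scaling the shares below were 6.70%, 8.85%, 12% and 17.0%, and the shares above 11%, 10.6%, 10.4% and 9.56%. The share below thus increased with level under both scalings, whereas the balance of directions in the upper classes did not stay the same. The median SE was 0.131 in the lowest and 0.077 in the highest class, and its part in these shares was not tested. Of the 68 models at an adjusted p under 0.1, 28 were in the highest class and 12 in the lowest.

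**Figure D5:**
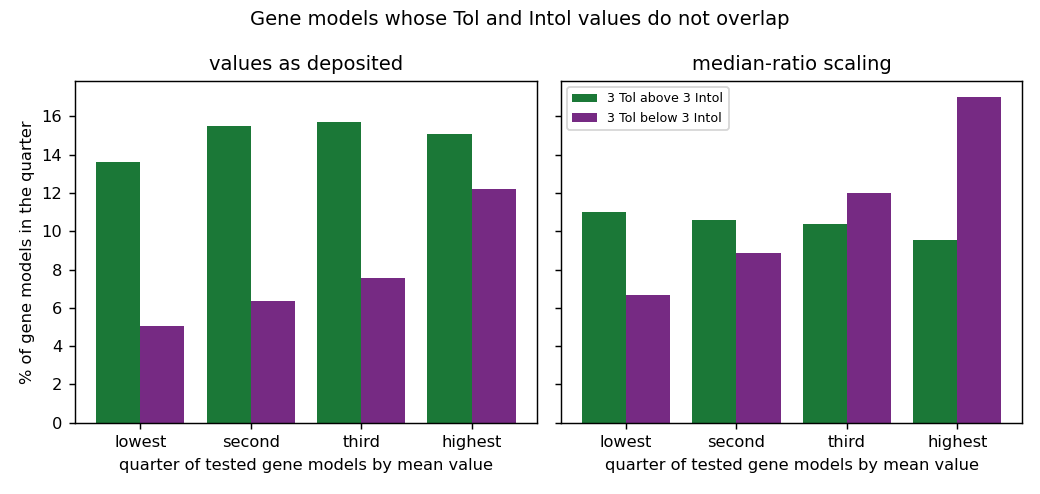
Share of tested gene models (y axis, %) whose 3 Tol values lay wholly above (green) or wholly below (violet) the 3 Intol values, in 4 classes of mean value (x axis), for values as deposited (left) and after median-ratio scaling (right). The share wholly below increases from the lowest to the highest class in both panels, from 5.06% to 12.2% and from 6.70% to 17.0%.

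Gene models much higher in brain than in liver were described in the same way. A mean at least 3 higher on the log2 scale in brain than in liver was found for 2530 of the tested models. Of these, 417 lay wholly above and 308 wholly below Intol, or 16.5% and 12.2%, with a median difference of 0.01. Among the 11426 models without such a difference between the tissues in either direction, 14.7% and 6.78% did, with a median difference of 0.05. After median-ratio scaling the shares were 10.6% above and 17.0% below for the brain-enriched models and 10.4% and 9.85% for the others. Of 190 models at least 3 higher in liver, 23 lay wholly above and 18 wholly below, or 12.1% and 9.47%. Among all tested models the shares were 15% and 7.78%. The brain-enriched models were also the more abundant ones, with a lowest mean value of 7.11. The class rule itself sets such a floor, because the log2 value in liver cannot be negative. Scarcer brain models, also those absent from liver, fall among the 11426 others, so tissue and level are mixed in this comparison.

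The number of calls was sensitive to how the libraries were weighted. Giving each library a weight estimated from its own residuals (limma array quality weights), 861 gene models were higher and 456 lower in Tol at an adjusted p under 0.05, or 9.31% of those tested. The weights were 1.38, 0.893 and 1.30 for Tol replicates 1 to 3 and 2.76, 0.553 and 0.410 for Intol replicates 1 to 3. The Intol mean in that fit therefore follows Intol replicate 1 most, and the weights came from the same values as the test. Fitting the brain contrast within all 12 libraries gave 110 higher and 48 lower at that threshold. With single libraries left out the number of calls was 0 to 25, as low as 0 without Tol replicate 1, Tol replicate 2 or Intol replicate 1, where 1303, 2079 and 1437 gene models had an unadjusted p under 0.05 (limma), and as high as 25 without Intol replicate 2. It was 9 without Tol replicate 3.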

How the data were processed

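Brain mRNA was sequenced from 3 Tol and 3 Intol samples. Per the labels' protocols, RNA with an integrity number above 8 went into TruSeq libraries read as 125-bp paired ends, and cleaned reads were assembled with Trinity. For the aligner, counting tool, annotation and normalization nothing is given in the sources used here. The deposited values carry no stated unit and were read as FPKM, because they have decimals and unequal library sums. A check of low values for steps of single reads was not decisive, since it had no reference share to compare with. At most 8.49% of low gene models fell in 1 bin of 0.02 in the log2 ratio of a pair of libraries. Sequencing depth stays unknown. The file of Intol brain replicate 2 also held a block equal to Intol brain replicate 1 in all 18490 values, which was left out. Among gene models above 0 in either library, no pair of brain libraries shared more than 1.42% of its values.

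Tol minus Intol was fitted across all gene models that reached a value of 1 in 3 or more of the 6 libraries. The log2(value + 1) values went into limma 3.58.1 (R 4.3.3), with variance trend and robust moderation, with group means and no other term. The steps were tested on simulated data. These held no outlying library and no shift of whole libraries, so that test does not cover such features. Counts of separated gene models and classes of level are descriptions. Medians per library were compared by exact permutation tests (SciPy 1.17.1, Python 3.11.15). The liver-against-brain difference of the named models was fitted by limma over 12 libraries.

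Gene models were named by a rule: up to 2 per direction, calls first by size, then by smallest p among models whose groups do not overlap. The comparison, lists and tests were chosen with earlier results of these data known. Lists of marker and pathway genes had been set up, but 0 gene models carry names, so none was run. The replicate numbers were checked for pairing. The alternatives were 2 scalings, pseudocounts of 0.1 and 5, 2 filters, limma without trend and robust moderation, array weights, a replicate block, 12 libraries in one fit and each library left out. Of these, the filter and the scaling over 5 libraries, and the alternatives for the liver-against-brain difference, were added after the data were seen.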

Additional observations from a re-analysis of the deposited data

Results flagged for a closer look

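For 3 of the 4 named gene models the Tol minus Intol difference was unequal in liver and brain, by a test of the difference over 14817 gene models in all 12 libraries (limma interaction). The 4 models were picked for their difference in the same brain libraries. The p-values of this test partly repeat that choice and are not separate support. Subtracting the brain value from the liver value gave -1.17 ± 0.12 (SE) for Trachinotus_GLEAN_10018571, with an adjusted p of 0.000253, and -0.83 ± 0.13 (SE) for Trachinotus_GLEAN_10001653, with an adjusted p of 0.0017. Their liver values did not exceed 0.35 in any library, so both were near 0 there. For Trachinotus_GLEAN_10001653 the liver part was 0, so the value is its brain difference with the sign reversed. For Trachinotus_GLEAN_10018571 the brain part was 0.96 and the liver part -0.22, and the difference depended on the pseudocount, at -2.20 ± 0.46 (SE) with a pseudocount of 0.1 and an adjusted p of 0.00671, and -0.80 ± 0.05 (SE) with a pseudocount of 5 and an adjusted p of 4.05e-05 (limma). With a pseudocount of 0.1 the difference of Trachinotus_GLEAN_10001653 was -0.83 ± 0.37 (SE) with an adjusted p of 0.126 (limma).

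For Trachinotus_GLEAN_10009201 the difference was -1.09 ± 0.30 (SE), with an adjusted p of 0.0235 (limma). This model was expressed in both tissues and was lower in Tol in both, by -1.73 in liver and -0.64 in brain on the log2 scale. After median-ratio scaling within each tissue the difference was -0.76 ± 0.31 (SE) with an adjusted p of 0.11 (limma), so that call depends on the scaling. For Trachinotus_GLEAN_10015801 the difference of 0.12 ± 0.18 (SE) had an adjusted p of 0.68 (limma).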

How the results depend on the processing

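The direction of the change of the 4 named gene models was kept in all 18 alternatives. Their Tol and Intol values do not overlap, so leaving out a library or changing pseudocount, filter, moderation or weights could not reverse it. The number of calls, 3 as reported, varied. It was 8 with median-ratio scaling and 8 with quantile normalization, 5 with a pseudocount of 0.1, 12 with a mean value of at least 5, 1 without trend and robust moderation, 1317 with array quality weights, and 158 with all 12 libraries in one fit. It was 0 to 25 with each library left out. Without Intol replicate 3 it was 7, and 1 with the filter taken over these 5 libraries or 7 with median-ratio size factors over them. The median change, 0.04 as reported, was 0.00297 with median-ratio scaling, 0.0094 with quantile normalization and 0.0043 with median-ratio size factors over 5 libraries. The models whose groups do not overlap, 3218 as reported, numbered 3939 to 5648 with each library left out, 5605 with the filter over 5 libraries and 5250 with median-ratio size factors over 5 libraries, where 2574 were higher and 2676 lower. Changes of at least 1 on the log2 scale, 41 as reported, numbered 117 with a pseudocount of 0.1, 6 with a pseudocount of 5, 26 with a mean value of at least 5, and 36 to 66 with each library left out. The causes of these differences were not tested, except that fewer libraries make non-overlap easier.

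Whether the replicate numbers pair the samples could not be decided. The deviations of same-numbered Tol and Intol libraries correlated at -0.0797, 0.131 and 0.179, too few values from 3 libraries a group to tell. With the replicate block 15 gene models passed, 3 higher and 12 lower. With 3 libraries a group and no depth, small changes of low gene models are the least well measured, with a median SE of 0.131 in the lowest class of level against 0.077 in the highest.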
